A study of Arabidopsis thaliana with 6 samples.

Results

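The trichome birefringence-like (TBL) genes of Arabidopsis thaliana were followed in dissected root meristems of plants that overexpress the microRNA miR396. The group was taken as every probe set whose annotated gene symbol is TBL followed by a number, which gave 22 probe sets, 1 for each of 22 genes, among 22746 probe sets other than controls. A gene table of the species lists 45 TBL genes, and the other 23 were not analysed here because the annotation used gives no probe set with such a symbol for them. The 35S:miR396 group (3 arrays) came from plants in which a strong and nearly ubiquitous viral promoter drives miR396, and the WT group (3 arrays) from wild-type plants. All plants were untreated, grew on vertical agar plates in long days and were taken 7 days after sowing. Each title marks its sample as a biological replicate, numbered within its genotype. The labels name neither the accession nor the number of transgenic lines or of plants behind each sample. The p-values here therefore cover the spread among these 6 samples, of which a part may be technical.

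TBL proteins are a plant family of the secretory pathway, and several of them move acetyl groups onto the polysaccharides of the cell wall. RWA proteins are thought to bring the acetyl donor into the Golgi, and different TBL proteins then acetylate xylan, xyloglucan, mannan or pectin, which changes how these polymers pack, gel and yield to enzymes. Pectin acetylesterases in the wall can take such groups off again. The family is named after TBR, a relative needed for normal secondary walls in leaf hairs, and its best known member is ESK1 (TBL29), the main xylan acetyltransferase of xylem.

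Each array gave a log2 value per probe set, in which a difference of 1 is a 2-fold difference. Between 35.1% and 35.4% of the probe sets of an array lay within 0.1 of the lowest value, the floor. Testing needed a log2 value of 4 or more in 3 or more of the 6 arrays, which 11364 probe sets had. Across these, Pearson correlations between arrays, over probe sets that are not independent replicates, were 0.978 to 0.990 within 35S:miR396, 0.988 to 0.993 within WT and 0.944 to 0.976 between the groups. No probe set was named for any of 9 GRF genes, most of them known targets of miR396, so the genotype rests on the labels. Both root meristem markers with a named probe set, of 8 on the list, had signal in every array, and both were higher in 35S:miR396, as were 12.7% of all tested probe sets: BBM by 1.50 ± 0.14 and AGL42 by 0.68 ± 0.14 (log2, SE; limma adjusted p = 0.00122 and 0.0163). AGL42 was not called when dim probe sets were kept in the fit (adjusted p = 0.0838; from 0.0147 over the alternatives). The mean log2 value of this pair ran from 6.93 to 7.26 in the 35S:miR396 arrays and from 5.82 to 6.13 in the WT arrays. Its part in the differences below was not tested, and in such bulk samples more cells of a type and more RNA per cell cannot be told apart. The root hair genes EXPA7 and EXPA18 lay at or near the floor, at 2.38 or below in all arrays, while markers of root cap, xylem and green tissue had no named probe set.

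Of the 22 TBL probe sets, 10 were tested and the other 12 were too dim to compare. TBL36 and TBL39 were higher in 35S:miR396, TBL25, TBL16 and TBL18 were lower, and 5 did not pass the test. The 5 calls among 10 (limma, Benjamini-Hochberg adjusted p under 0.05) stand against 25.0% of all tested probe sets, 12.7% called higher and 12.3% called lower. A called difference of at least 2-fold was seen at 2 members, TBL36 and TBL25, against 4.19% of all tested probe sets. TBL25 lay at this limit, with a log2 fold change of -1.01. Over the 13 alternatives it ran from -1.15 to -0.82, so it was under 2-fold in some of them. The median log2 fold change of the 10 members, 35S:miR396 minus WT, was -0.15, against -0.01 over all tested probe sets. Their median absolute log2 fold change was 0.28, against 0.21 over all. The values of the 2 groups of 3 arrays did not overlap at 6 of the 10 members, against 45.7% of all tested probe sets. One of these is TBL23, which passed the filter mainly through its WT arrays; of the 9 members at 4 or more in all 6 arrays, the groups did not overlap at 5. Only 3 members, TBL25, TBL36 and TBL39, kept the call when any single array was left out. The count of called members was 3 without replicate 3 of 35S:miR396 and without replicate 1, 2 or 3 of WT, each left out alone. The share of all tested probe sets called in those fits was 12.0% without replicate 3 of 35S:miR396, and 11.4%, 9.26% and 13.2% without replicates 1, 2 and 3 of WT.

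**Figure D1:**
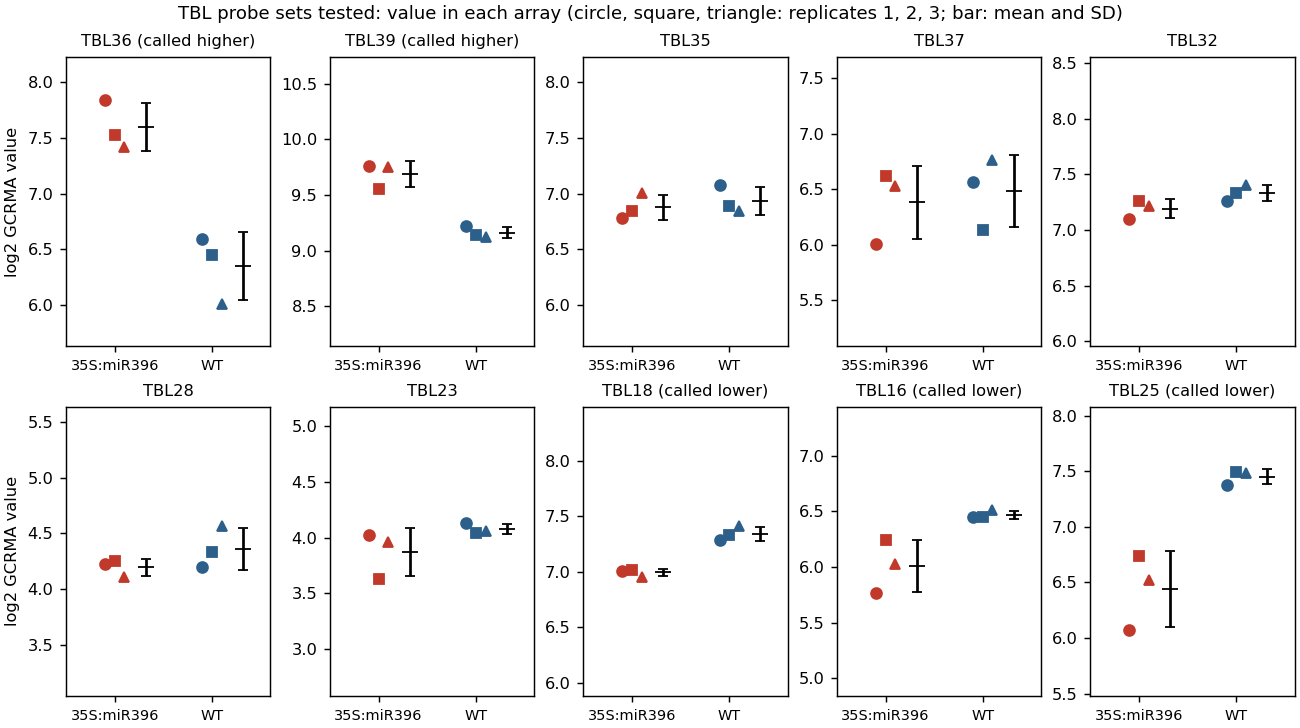
The log2 GCRMA value of each tested TBL probe set is plotted for every array, with 35S:miR396 on the left and WT on the right of each panel; circles, squares and triangles are replicates 1, 2 and 3, bars are mean ± SD (n = 3), and every panel spans the same height. TBL36 and TBL39 lie higher in all 3 arrays of 35S:miR396 and TBL25, TBL16 and TBL18 lower, while the groups of TBL35, TBL37, TBL32 and TBL28 overlap.

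TBL36 had the widest difference of the tested members. Its log2 values were 7.84, 7.53 and 7.42 in 35S:miR396, against 6.59, 6.45 and 6.01 in WT. The lowest 35S:miR396 array lay well above the highest WT array, and the WT group was the more spread of the pair, with replicate 3 lowest. The means were 7.60 ± 0.22 in 35S:miR396 and 6.35 ± 0.30 in WT (SD, n = 3 each), a 2.37-fold rise (log2 fold change 1.25 ± 0.18, SE; limma adjusted p = 0.00546). Its absolute log2 fold change exceeded that of 97.1% of the tested probe sets. The log2 fold change ranged from 1.08 without WT replicate 3 to 1.37 without WT replicate 1. The limma adjusted p ran from 0.00132 to 0.0486 over the alternatives. It was highest, and only just under 0.05, when dim probe sets were not filtered out. No substrate of TBL36 is given here.

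TBL39 rose by less but with little scatter. Its log2 values were 9.76, 9.55 and 9.76 in 35S:miR396, against 9.22, 9.15 and 9.12 in WT. The groups were clearly apart, and replicate 2 of 35S:miR396 was the nearest to WT. The log2 fold change was 0.53 ± 0.08 (SE), a 1.44-fold rise (limma adjusted p = 0.00563), from 0.49 to 0.59 when single arrays were left out.

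Among the mannan acetyltransferases, TBL25 was lower in 35S:miR396. TBL23, TBL24, TBL25 and TBL26 form this group, whose products add acetyl groups to mannose units of the mannan backbone in enzyme assays. TBL25 had log2 values of 6.07, 6.74 and 6.52 in 35S:miR396, against 7.37, 7.49 and 7.48 in WT. All 3 arrays of 35S:miR396 were below every WT array, replicate 1 furthest, and they were more spread than the tight WT group. The means were 6.44 ± 0.34 in 35S:miR396 and 7.45 ± 0.07 in WT (SD, n = 3 each), a 2.01-fold fall (log2 fold change -1.01 ± 0.17, SE; limma adjusted p = 0.00826). The log2 fold change was -0.82 without replicate 1 of 35S:miR396 and -1.15 without replicate 2, and the call held in both cases. It was lost when dim probe sets were not filtered out (adjusted p = 0.0618, the highest over the alternatives, which started at 0.000892).

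TBL23 sat at the edge of the filter. Its log2 values were 4.03, 3.62 and 3.96 in 35S:miR396, against 4.13, 4.04 and 4.05 in WT. It passed through all 3 WT arrays and 1 array of 35S:miR396, so a lower value in 35S:miR396 is partly built into its being tested. The groups did not overlap, but the gap was small, and the log2 fold change of -0.21 did not pass the test (95% interval -0.53 to 0.12; limma adjusted p = 0.303). TBL26 lay at the floor, between 2.256 and 2.259 in all 6 arrays, and TBL24 had no probe set under that symbol. Whether the changes of TBL25 and TBL23 differ from each other was not tested.

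None of the 3 tested xylan acetylation genes passed the test, against 25.0% of all tested probe sets called, and so few tests say little about the group. The list holds 9 genes, of which 5 had a probe set under their symbol and 3 could be tested, and ESK1 (TBL29), TBL3, TBL31 and TBL33 were among those without one. TBL32 and TBL35 act beside ESK1 on xylan, and TBL28 and TBL30 acetylate xylan in enzyme assays. TBL32 had log2 values of 7.10, 7.26 and 7.21 in 35S:miR396, against 7.26, 7.33 and 7.41 in WT. The groups touched at their edges, and the difference was -0.14 (95% interval -0.34 to 0.06; limma adjusted p = 0.251). The name of its probe set marks probes that can match more than 1 transcript, although the annotation gives TBL32 alone. TBL35 stood at 6.78, 6.85 and 7.00 in 35S:miR396, against 7.08, 6.89 and 6.84 in WT. These groups were interleaved, and the difference was -0.06 (95% interval -0.30 to 0.18; limma adjusted p = 0.686). The intervals of both genes hold neither a 2-fold rise nor a 2-fold fall. TBL28, a dim probe set between 4.11 and 4.57, differed by -0.17 (95% interval -0.48 to 0.14; limma adjusted p = 0.368). TBL30, the next protein-coding gene after TBL28 on the chromosome, was below the filter, between 2.48 and 2.79. TBL34, a further xylan acetyltransferase, was at or near the floor, between 2.31 and 2.36.

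TBL16, TBL18 and TBL37 are members to which no substrate is given here. TBL16 had log2 values of 5.77, 6.24 and 6.02 in 35S:miR396, against 6.45, 6.45 and 6.51 in WT. All arrays of 35S:miR396 were lower, with replicate 2 close to WT. TBL16 fell by 0.46 on the log2 scale (SE 0.13; limma adjusted p = 0.0397), and its call rested on most arrays. It was lost without replicate 1 (-0.34) or 3 (-0.47) of 35S:miR396, without any WT array (-0.47, -0.47 and -0.44 without replicates 1, 2 and 3) and with no filter, at adjusted p-values of up to 0.131 and from 0.0069 over the alternatives.

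TBL18 had log2 values of 7.01, 7.02 and 6.96 in 35S:miR396, against 7.28, 7.33 and 7.41 in WT. Both groups were tight and did not overlap. TBL18 fell by 0.35 on the log2 scale (SE 0.08; limma adjusted p = 0.0203). The call was lost without replicate 3 of 35S:miR396 (-0.33) and without replicate 1 (-0.38), 2 (-0.35) or 3 (-0.31) of WT, at adjusted p-values of up to 0.0745 and from 0.00434 over the alternatives. TBL37 was the most scattered tested member. Its log2 values were 6.01, 6.62 and 6.53 in 35S:miR396, against 6.56, 6.13 and 6.77 in WT. Each group had 1 low array, and the difference of -0.10 had a wide interval of -0.60 to 0.40 (limma adjusted p = 0.742).

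In 4 of the 5 called members, TBL25, TBL16, TBL18 and TBL39, replicate 2 was the 35S:miR396 array nearest to the WT mean. The same array was nearest at 62.6% of all 2838 called probe sets. In TBL36 it was replicate 3. Without replicate 2 of 35S:miR396 the same 5 members were called, with log2 fold changes of -1.15 for TBL25, -0.57 for TBL16, -0.36 for TBL18, 0.59 for TBL39 and 1.28 for TBL36.

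**Figure D2:**
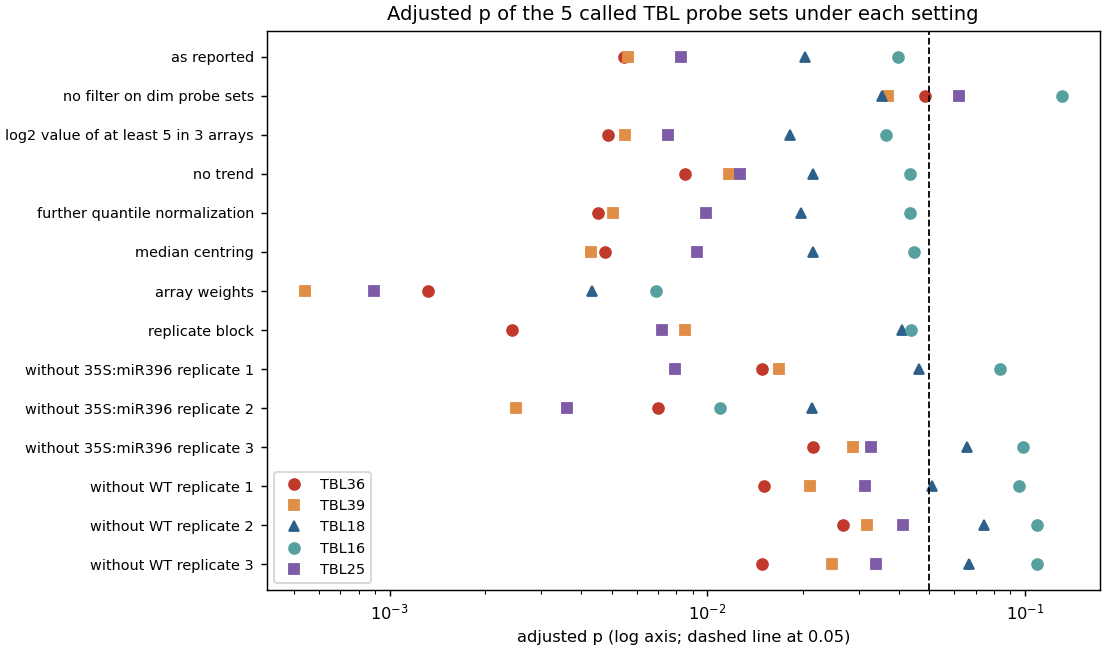
The adjusted p of the 5 called TBL probe sets is plotted on a log axis under the reported setting and 13 alternatives, with the threshold of 0.05 as a dashed line. TBL36 and TBL39 stay left of the line throughout, TBL25 crosses it with no filter on dim probe sets (0.0618), TBL18 under 4 alternatives and TBL16 under 6.

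The 12 TBL probe sets below the filter gave no level that could be compared. Of these, 9 were below 3 in every array, between 2.25 and 2.79: TBL15, TBL20, TBL26, TBL30, TBL34, TBL38, TBL41, TBL42 and TBL43. TBL15 and TBL42 repeated a single value in all 6 arrays, 2.2555 and 2.2582. The other 3 had at least 1 array above 3. TBL21 was the nearest below the filter, with log2 values of 3.52, 3.62 and 3.92 in 35S:miR396, against 3.60, 3.20 and 4.12 in WT, and these groups overlapped. TBL19, the protein-coding gene next to TBL21, ran from 2.52 to 3.05 in 35S:miR396 and from 3.03 to 3.22 in WT. TBL45 ran from 3.26 to 3.38 in 35S:miR396 and from 3.14 to 3.52 in WT. The groups overlapped or shared values at all 12. When every probe set was fitted with limma and no filter, 0 of the 12 were called, against 4.14% of all probe sets other than controls. Of the 12, 0 had an unadjusted p under 0.05 (lowest adjusted p = 0.585). At 7 of the 12 all 6 values lay within 0.1, so this fit could hardly call them and does not show that their transcripts were unchanged. A probe set at the floor does not show that its transcript was absent.

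**Figure D3:**
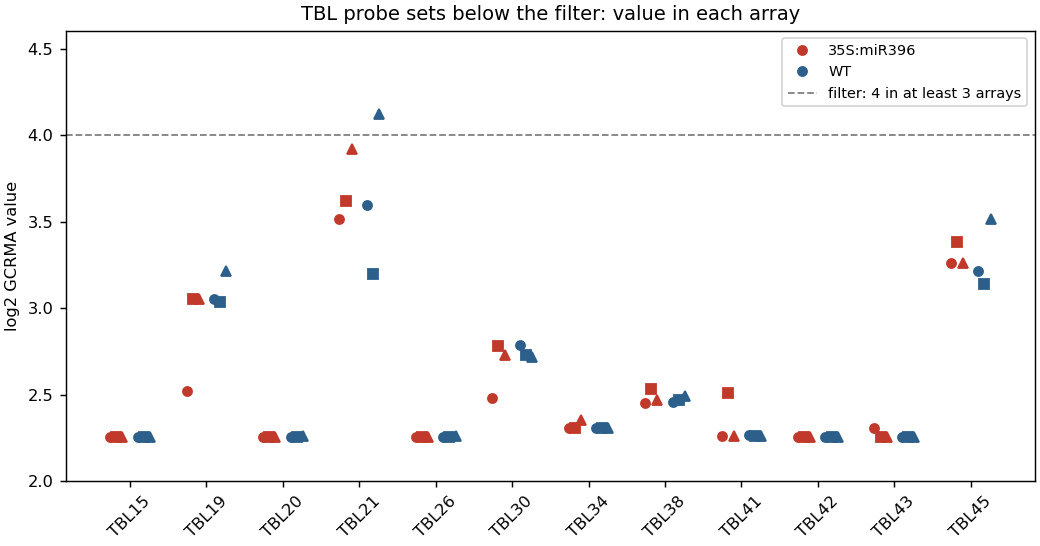
Log2 GCRMA values of the 12 TBL probe sets below the filter are plotted per array, 35S:miR396 (red) left of WT (blue), with circles, squares and triangles for replicates 1, 2 and 3. TBL21 reaches the dashed line at 4 in 1 WT array, and 9 probe sets stay below 3 in every array.

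Other genes of wall acetylation and wall polysaccharides were mostly unnamed on this array. Of 91 entries on 8 lists, made by locus code, 23 had a named probe set and 16 passed the filter, of which 6 fell, 1 rose and 9 did not pass, against the shares of 12.3% and 12.7% over all tested probe sets. Their median log2 fold change was -0.28, against -0.01 over all. The count of called entries was 3 of 16 without replicate 2 of WT, where 9.26% of all tested probe sets were called. TBR fell by 0.60 on the log2 scale (SE 0.13; limma adjusted p = 0.0183). Its log2 values were 7.09, 7.41 and 7.47 in 35S:miR396, against 7.79, 7.89 and 8.10 in WT, with no overlap. The call of TBR was lost without replicate 2 (-0.62) or 3 (-0.52) of WT and with no filter (adjusted p at most 0.0902 and at least 0.00748 over the alternatives).

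On the list of the 4 RWA genes and AXY9, AT3G03210 was the only entry with a named probe set. It fell by 0.53 on the log2 scale (SE 0.11; limma adjusted p = 0.0167). It was no longer called without replicate 1 (-0.49) or 3 (-0.50) of 35S:miR396, without WT replicate 2 (-0.46) and with no filter (adjusted p from 0.00248 to 0.0667 over the alternatives). The RWA genes themselves were not analysed here.

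On the pectin acetylesterase list, 6 of 12 entries were named and 4 passed the filter, of which 2 fell, 1 rose and 1 did not pass, against 12.3% called lower and 12.7% called higher over all tested probe sets. AT1G57590 fell most, with log2 values of 7.56, 8.38 and 7.91 in 35S:miR396, against 9.53, 9.69 and 9.60 in WT. The WT arrays were close together and every 35S:miR396 array lay far below them. This was a 3.16-fold fall (log2 fold change -1.66 ± 0.19, SE; limma adjusted p = 0.00274), larger in absolute size than that of 98.7% of the tested probe sets, and it was called under all 13 alternatives. AT3G09410 fell by 0.44 on the log2 scale (limma adjusted p = 0.0192, and 0.00904 to 0.0637 over the alternatives), a call lost without replicate 1 of 35S:miR396 (-0.39) and without replicate 1 (-0.44), 2 (-0.48) or 3 (-0.42) of WT. AT5G26670 rose by 0.65 ± 0.12 (log2, SE; limma adjusted p = 0.0117, and 0.00616 to 0.059 over the alternatives), a call lost with no filter. AT3G05910 stood at -0.10 and did not pass.

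Genes that build the acetylated polymers, and those of cellulose, gave few tests. For xylan, GUT1, a glycosyltransferase closely related to the xylan synthase subunit IRX10, fell by 0.43 on the log2 scale (SE 0.08; limma adjusted p = 0.0131, and 0.00434 to 0.0576 over the alternatives), a call lost without WT replicate 2 (-0.42). GUT2, which is IRX10 itself, stood at 0.22 and did not pass. For xyloglucan, 3 members of the CSLC family of glucan synthases were tested and 0 passed in limma, against 25.0% of all tested probe sets called. They were CSLC5 at 0.02, CSLC04 at -0.17 and CSLC6 at -0.36. For mannan, the synthase gene CSLA03 stood at 0.44 and did not pass, while AT2G22900 fell by 0.60 on the log2 scale (SE 0.11; limma adjusted p = 0.0102, and 0.0015 to 0.0576 over the alternatives), a call lost with no filter. Of the pectin list, AT5G15740 (-0.33) and GAUT15 (0.53), a gene of the galacturonosyltransferase family, did not pass. COB, which orients cellulose deposition in the growing root and was the only cellulose entry tested, stood at -0.23 and did not pass.

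**Figure D4:**
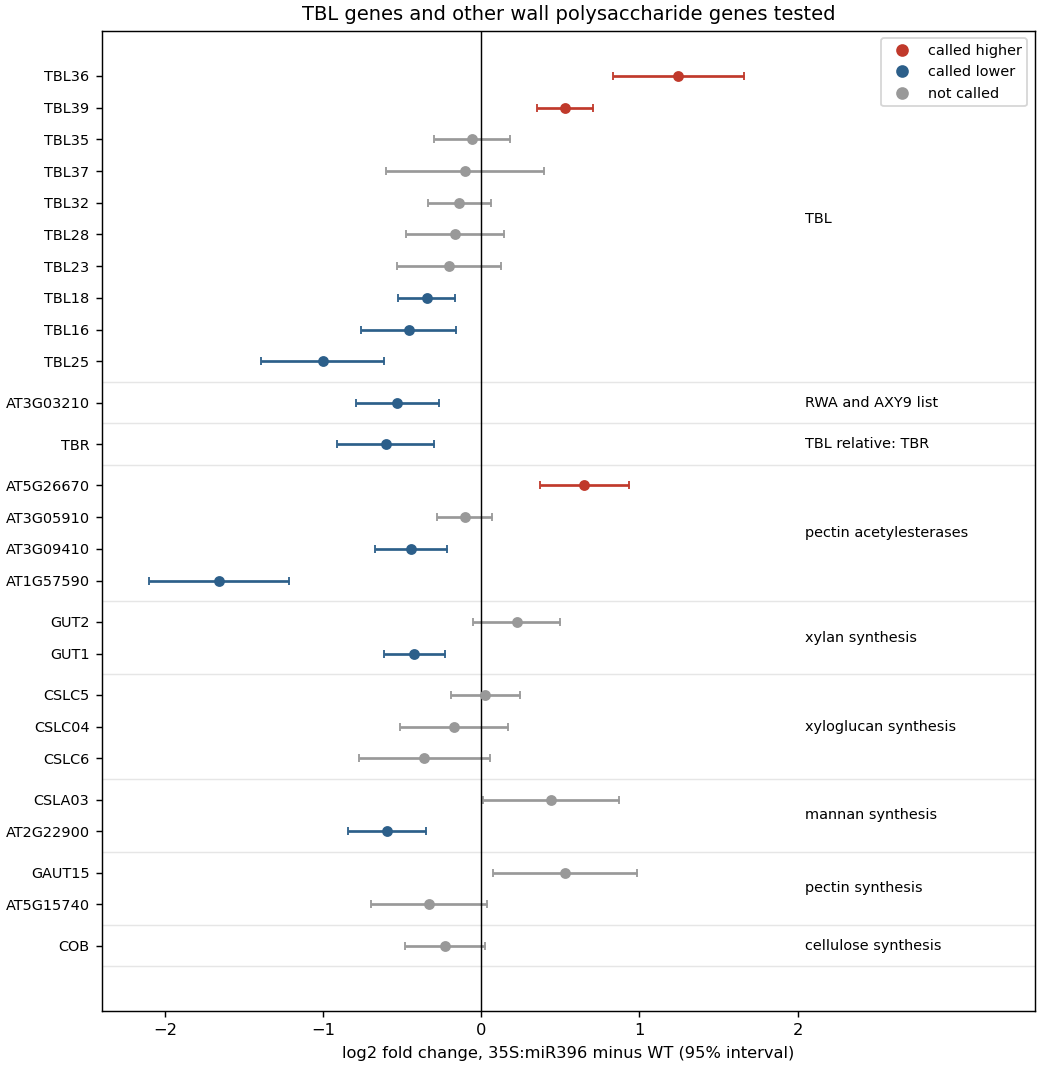
Log2 fold changes of 35S:miR396 minus WT with 95% intervals are plotted for the 10 tested TBL probe sets and the 16 tested entries of the other wall lists, red where called higher, blue where called lower and grey where not called. TBL36 at 1.25 and the pectin acetylesterase list entry AT1G57590 at -1.66 lie furthest from 0. The intervals are not adjusted for the number of tests, whereas the calls are. Those of CSLA03 and GAUT15 therefore lie above 0 although neither was called.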

How the data were processed

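Total RNA of 6 samples was biotin-labelled from the 3' ends of transcripts, per the labels' protocols, and hybridised to an Affymetrix array. The deposited table holds a log2 value for each probe set, and the submitters' processing notes name GCRMA, whose version is not given in the sources used here. This method subtracts a background modelled from probe sequences and puts arrays on 1 scale. Dim probe sets end at a floor value, so low levels are compressed and a change in total RNA per cell is not seen. That the values are log2 and uncentred was read from the values.

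The table held 22810 probe sets, of which 64 controls were left out. All 11364 probe sets with a value of at least 4 in 3 or more of the 6 arrays were fitted with limma 3.58.1 in R 4.3.3 (lmFit, eBayes with a mean trend, no block), two-sided, with Benjamini-Hochberg adjustment over all of them. The code of the fit was tried on simulated independent arrays with fewer changed probe sets than were called here. That was a check of the code and not of these results. Errors of fold changes are moderated standard errors, and those of levels are standard deviations. The 95% intervals are not adjusted for the number of tests. The number of arrays limits the precision. Groups came from the sample titles.

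Names came from the platform annotation, which gives 1 gene for 13513 probe sets and several for 503 (none a TBL gene), and does not list 8730 others that are not controls. Gene identifiers were matched to a gene table of assembly TAIR10.1 for locus codes and neighbours. All TBL members are described; of each wall list up to 4 called members were to be named, and others tested are given with their values. Members and lists were chosen with earlier results of these data known. Alternatives were 2 filters, no trend, 2 normalizations, array weights, a replicate block and leaving out each array. Sequences were not analysed here.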

Additional observations from a re-analysis of the deposited data

How the results depend on the processing

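The 5 called TBL members kept their direction under all 13 alternatives. When dim probe sets were kept in, 941 of 22746 probe sets (4.14%) were called. Among them were 3 of the 22 TBL members and 3 of the 23 named entries of the other wall lists. TBL16 (-0.46) and TBL25 (-1.01) lost the call at unchanged fold changes. With array weights 4749 tested probe sets (41.8%) and the same 5 TBL members were called. The weights were uneven, from 0.40 (replicate 2) to 2.50 (replicate 3) in 35S:miR396 and from 0.73 (replicate 3) to 2.50 (replicate 2) in WT. Leaving out 1 array at a time gave 1052 to 3813 calls over all tested probe sets (9.26% to 33.6%). Of the 10 tested TBL members 3 to 5 were then called, and of the 16 tested entries of the other lists 3 to 7. The log2 fold change of TBL16 then ran from -0.57 to -0.34 and that of TBL18 from -0.38 to -0.31. The uncalled TBL35 and TBL37 changed sign under 2 and 3 alternatives. With the replicate block 2844 tested probe sets (25.0%), the same 5 TBL members and 8 entries of the other lists were called. Deviations of same-numbered arrays from their group means correlated at 0.40, -0.09 and 0.14 for numbers 1, 2 and 3. Between differently numbered arrays of the 2 groups the correlations ran from -0.48 to 0.35. Whether the replicate numbers pair the arrays cannot be settled from these values, since deviations within a group of 3 sum to 0. The cause of the changes under the alternatives was not tested. Dim probe sets limit what can be said of 12 of the 22 TBL genes.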

Other observations

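A gene listed as TBL40 among the synonyms of AT2G31110 falls outside the naming rule, because the annotation gives its 2 probe sets the locus code only. It was looked up after the other values had been seen. Both probe sets lay at the floor in all 6 arrays, the first at 2.2543 throughout and the second at 2.2754 in 35S:miR396 and between 2.2754 and 2.3041 in WT.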
